A study of Caenorhabditis elegans with 8 samples.

Results

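The genes described here are 10 genes of the intestine of Caenorhabditis elegans, given as a list of intestine identity and brush border genes and looked up by symbol: elt-2 (C33D3.1), elt-7 (C18G1.2), ges-1 (R12A1.4), ifb-2 (F10C1.7), ifc-2 (M6.1), act-5 (T25C8.2), erm-1 (C01G8.5), eps-8 (Y57G11C.24), nhx-2 (B0495.4) and cpr-6 (C25B8.3). All 10 were found, each by 1 feature, among 27792 array features, of which 25546 carry exactly 1 gene symbol. RNA came from whole young adults of VP303, NR350, TU3401 and N2 after 3 days of feeding on bacteria for ash-2 RNAi or for control RNAi, started at the egg, with worms kept at 20 °C. That gave 8 groups: VP303 ash-2, VP303 control, NR350 ash-2, NR350 control, TU3401 ash-2, TU3401 control, N2 ash-2 and N2 control, with 1 Affymetrix array in each. Per the labels, VP303 is the strain for RNAi in the intestine, NR350 for muscle and TU3401 for neurons, while in wild-type N2 RNAi reaches the whole body. The labels give no genotypes beyond the strain names. As background, VP303 and NR350 carry a mutation of rde-1, the Argonaute that RNAi needs, with a working copy under the nhx-2 promoter in VP303 and under the hlh-1 promoter in NR350, and TU3401 carries a mutation of the dsRNA channel gene sid-1 with a working copy under the unc-119 promoter. One of the 10 genes, nhx-2, is thus the source of the promoter used in VP303.

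The worm intestine is a tube of large polarised cells, built early in the embryo and kept for life. The GATA factor ELT-2, with its relative ELT-7, drives most genes of the differentiated gut, including ges-1, long used as a marker of gut cells. The apical face of these cells carries microvilli, whose core is made of the actin ACT-5, capped and bundled by EPS-8 and tied to the membrane by ERM-1, the worm ezrin-radixin-moesin protein. Beneath them lies the endotube, a sheath of intermediate filaments that contains IFB-2 and IFC-2. NHX-2 is an apical sodium-proton exchanger, and CPR-6 is a cysteine protease related to cathepsin B. In RNA from whole animals, a change in the share of gut tissue and a change in RNA per gut cell cannot be told apart.

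Values are intensities on a linear scale, as normalized by the authors, and log2 of them. Array medians lay between 21.1 and 21.6, the lowest values near 18, and 31.3% of all features had a mean intensity above 32. All 10 genes did, from 34.1 for ges-1 to 2540 for cpr-6, and none had a near-identical feature (all 8 log2 values within 0.05 of another's). Outside NR350 the values of ges-1 ran from 27.1 to 34.9, around that threshold, and the NR350 values raised its mean. Genes of the strains' transgenes, as known from background, stood out in VP303 and TU3401: rde-1 read 339 and 305 in VP303 (ash-2 and control) against 61.3 and 56.0 in N2, and sid-1 read 642 and 661 in TU3401 against 200.4 and 179 in N2. In NR350 rde-1 did not stand out, with 51.6 and 49.6 against 61.3 and 56.0 in N2 (log2 difference -0.21, limma adjusted p = 0.47). The transgene marker genes read 4317 and 4859 in VP303 against 26.0 and 23.8 in N2 for rol-6, and 4245 and 4214 in NR350 against 319 and 272 in N2 for sur-5. The RNAi target went against its labels: in every strain the array labelled ash-2 had the higher ash-2 signal, with 233 against 148 in VP303, 269 against 146 in NR350, 198 against 122.4 in TU3401 and 183 against 149.8 in N2 (limma adjusted p = 0.302), so every direction of response below rests on the labels. The NR350 arrays stood apart from the others. Against N2, limma called 7.18% of all features changed in NR350, 0.640% in VP303 and 0.604% in TU3401. The comparisons of strains below treat the ash-2 and control arrays of a strain as its 2 repeats, with the RNAi treatment as a term. No label names separate cultures, so the p-values measure the spread between these arrays, which may be technical, and their number limits the precision.

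The intestine genes set NR350 apart, the strain with RNAi in muscle, from the other strains. Of the 10 genes, 8 rose in NR350 against N2, 1 fell (cpr-6) and 1 did not pass (elt-7), at an adjusted p under 0.05 in limma over all features. By the same rule 7.18% of all features changed, with 4.02% higher and 3.16% lower, and among the 8693 features with a mean intensity above 32, the shares were 9.20% higher and 8.79% lower. The median difference of the 10 genes was 0.65 on the log2 scale, against 0.00084 for all features and -0.080 for features above 32. For those 8 genes both NR350 arrays lay above all 6 other arrays, and for cpr-6 both lay below, which held for 8.96% and 9.03% of all features and for 15.2% and 17.7% of features above 32.

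**Figure D1:**
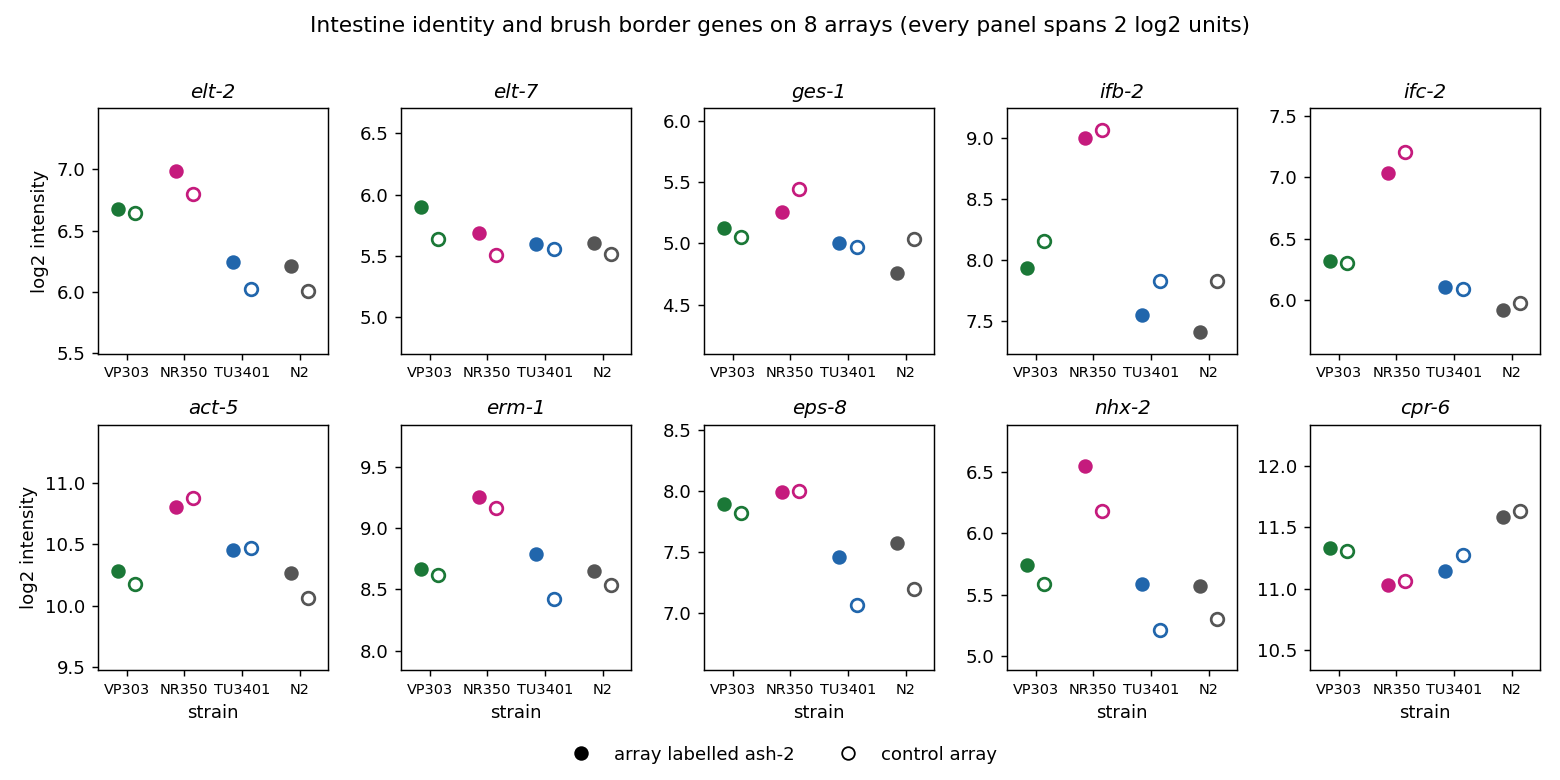
Log2 intensity of the 10 genes on each of the 8 arrays. Each panel is 1 gene, the x axis gives the strain, filled points are the arrays labelled ash-2 and open points the control arrays. The pair of NR350 points sits above the other 6 points in 8 panels and below them in the cpr-6 panel.

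Of the 10 genes, the intermediate filament genes of the endotube had the largest differences between NR350 and N2. The signal of ifb-2 was 510.2 and 534 in NR350, 245 and 285 in VP303, 188 and 227 in TU3401, and 171 and 228 in N2 (ash-2 array, then control array). Both NR350 values exceeded each of the other 6 by a wide margin, and the N2 and TU3401 values overlapped. The log2 difference between NR350 and N2 was 1.40 (SE 0.15, 95% interval 1.07 to 1.74, limma adjusted p = 2.88e-04), or 2.65-fold. The signal of ifc-2 was 131 and 148 in NR350, 79.7 and 78.9 in VP303, 68.8 and 67.9 in TU3401, and 60.5 and 62.8 in N2. Here no values of different strains overlapped, and the order ran NR350, VP303, TU3401, N2. NR350 exceeded N2 by 1.17 on the log2 scale (SE 0.14, 2.26-fold, limma adjusted p = 4.73e-04).

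The 3 microvillus genes were also higher in NR350, by smaller amounts. The microvillar actin act-5 read 1792 and 1883 in NR350, 1246 and 1157 in VP303, 1403 and 1415 in TU3401, and 1229 and 1070.5 in N2. NR350 was highest and TU3401 next, while VP303 and N2 overlapped. The difference between NR350 and N2 was 0.68 on the log2 scale (SE 0.11, 1.60-fold, limma adjusted p = 0.00365). The membrane linker gene erm-1 read 611 and 572 in NR350, 405 and 392 in VP303, 442 and 343 in TU3401, and 401 and 371 in N2. The values of the other 3 strains overlapped. NR350 exceeded N2 by 0.62 (SE 0.14, 1.53-fold, limma adjusted p = 0.0264). The capping protein gene eps-8 read 254 and 256 in NR350, 237 and 226 in VP303, 176 and 134 in TU3401, and 191 and 147 in N2. VP303 lay close below NR350, and TU3401 overlapped with N2. The difference between NR350 and N2 was 0.61 (SE 0.16, 1.53-fold), and its limma adjusted p of 0.0469 lay just under the threshold.

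The exchanger gene nhx-2 read 93.7 and 72.6 in NR350, 53.4 and 48.0 in VP303, 48.0 and 37.1 in TU3401, and 47.6 and 39.4 in N2. NR350 stood above the others, TU3401 overlapped with N2, and VP303, which carries the nhx-2 promoter as a transgene, had both values above those of N2. The difference was 0.93 between NR350 and N2 (SE 0.12, 1.91-fold, limma adjusted p = 0.00102) and 0.23 between VP303 and N2 (SE 0.12, 95% interval -0.044 to 0.50, limma adjusted p = 0.643).

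The regulators of gut identity split. The GATA factor gene elt-2 read 127 and 112 in NR350, 102 and 99.7 in VP303, 75.8 and 64.9 in TU3401, and 73.9 and 64.5 in N2. NR350 and VP303 lay above TU3401 and N2 with no overlap, and TU3401 and N2 overlapped. NR350 exceeded N2 by 0.78 on the log2 scale (SE 0.14, 1.72-fold, limma adjusted p = 0.00578). Its relative elt-7 read 51.6 and 45.5 in NR350, 59.8 and 49.8 in VP303, 48.5 and 47.1 in TU3401, and 48.8 and 45.7 in N2. The NR350 and N2 values of elt-7 overlapped, and their difference was 0.037 (SE 0.12, 95% interval -0.23 to 0.30, limma adjusted p = 0.936). The gut esterase gene ges-1, the dimmest of the 10, read 38.3 and 43.4 in NR350, 34.9 and 33.1 in VP303, 32.03 and 31.3 in TU3401, and 27.1 and 32.8 in N2. NR350 was highest, and TU3401 overlapped with N2. NR350 exceeded N2 by 0.45 (SE 0.12, 1.37-fold, limma adjusted p = 0.0405). These values lie near the bottom of the scale, where differences are compressed. With 16 subtracted from each intensity before the log, the differences between NR350 and N2 became 0.85 for ges-1, 1.29 for nhx-2 and 0.054 for elt-7.

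The protease gene cpr-6, the brightest of the 10, went the other way. It read 2096 and 2139 in NR350, 2570.3 and 2535 in VP303, 2262 and 2474 in TU3401, and 3068 and 3176 in N2. Each of the other strains lay below N2 with no overlap. The fall was 0.56 on the log2 scale in NR350 (SE 0.084, 1.47-fold lower, limma adjusted p = 0.00241). The differences of -0.40 in TU3401 (limma adjusted p = 0.0726) and -0.29 in VP303 (limma adjusted p = 0.217) did not pass.

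**Figure D2:**
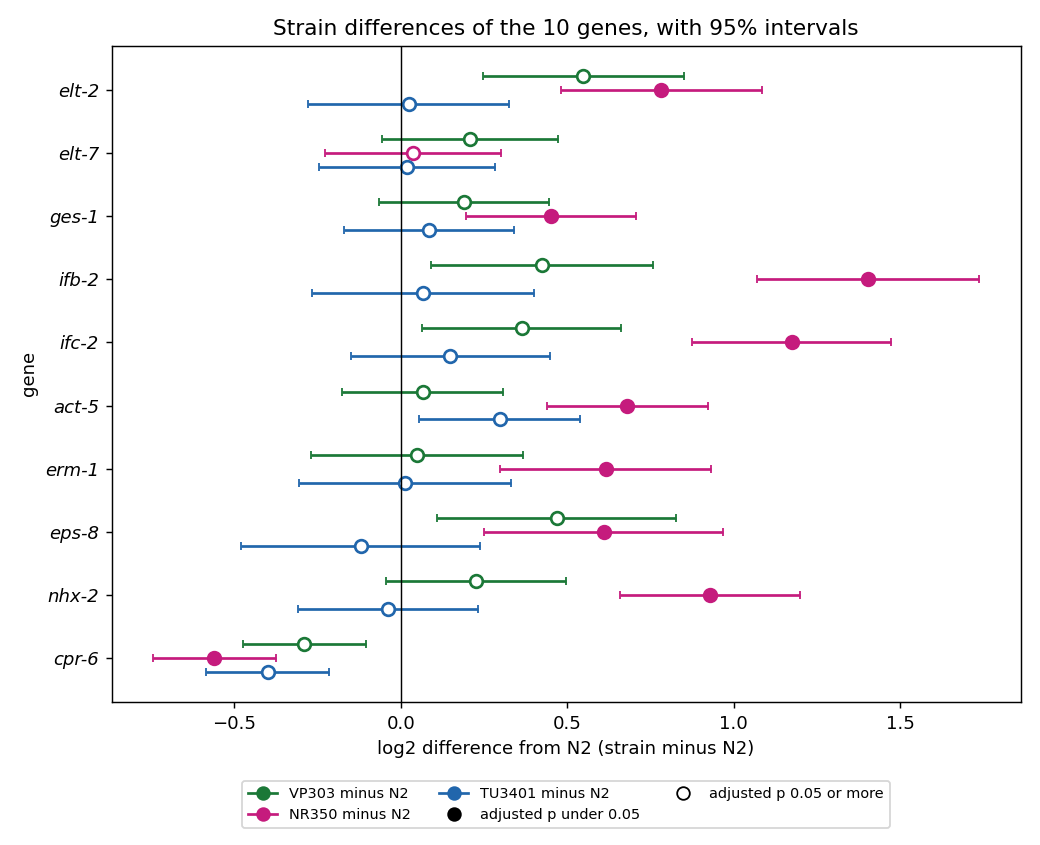
Log2 difference of VP303, NR350 and TU3401 from N2 for the 10 genes, on the x axis, with 95% intervals from limma as bars. Filled points have an adjusted p under 0.05. Filled points appear only for NR350, at 1.40 for ifb-2 and -0.56 for cpr-6 at the ends of the range, and elt-7 has none.

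How firmly these calls stood differed between the genes. The calls of ifb-2, ifc-2, nhx-2 and cpr-6 held in all 17 alternative settings of the NR350 comparison, and all 10 genes kept their direction in all 17. The eps-8 call held in 8 of 17, ges-1 in 11, erm-1 in 12, elt-2 in 14 and act-5 in 15. The count of 9 changed genes fell to 4 without the N2 control array, to 4 without the NR350 control array and to 5 without the NR350 array labelled ash-2. Each of these fits leaves a strain with 1 array, which is assumed to vary like the others.

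Against N2, neither VP303 nor TU3401 had a member of the list that passed. In VP303 0 of the 10 genes passed limma over all features, where 0.640% of all features and 1.88% of those above 32 did. The largest differences from N2 there were 0.55 for elt-2 (SE 0.14, adjusted p = 0.143), 0.47 for eps-8 (SE 0.16), 0.42 for ifb-2 (SE 0.15) and 0.36 for ifc-2 (SE 0.14). The median of the 10 differences was 0.22, against 0.00048 for all features and -0.034 for features above 32. In TU3401 0 of the 10 passed in limma, against 0.604% of all features and 1.48% of those above 32. The largest differences in TU3401 were -0.40 for cpr-6 (SE 0.084) and 0.30 for act-5 (SE 0.11). The TU3401 median was 0.021. VP303, NR350 and TU3401 are all set against the same N2 arrays here.

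Among the strains other than N2, NR350 again differed from both others. In VP303 against NR350, 5 genes fell: ifb-2 by 0.98, ifc-2 by 0.81, nhx-2 by 0.70, act-5 by 0.61 and erm-1 by 0.57 on the log2 scale, with limma adjusted p from 0.0036 to 0.0468, where 2.84% of all features and 6.56% of those above 32 fell. The count was 2 without any single one of these 4 arrays: the VP303 control, the VP303 array labelled ash-2, the NR350 control or the NR350 array labelled ash-2. For elt-2 the difference was -0.24 (95% interval -0.54 to 0.066) and for eps-8 -0.14 (95% interval -0.50 to 0.22), neither of which passed. In NR350 against TU3401, 6 genes rose, where 4.53% of all features and 11.2% of those above 32 did: ifb-2 by 1.34, ifc-2 by 1.03, nhx-2 by 0.97, elt-2 by 0.76, eps-8 by 0.73 and erm-1 by 0.60 (limma adjusted p at most 0.0298). That count was 3 without the NR350 control array, without the NR350 array labelled ash-2 or without the TU3401 control array. In VP303 against TU3401 0 genes passed limma, where 1.60% of all features and 4.23% of those above 32 did, with elt-2 lowest at an adjusted p of 0.0947.

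Put in order of level, 8 of the 10 genes had NR350 highest. In ifb-2, ifc-2, erm-1 and nhx-2 the step from VP303, the next strain, up to NR350 passed the limma test, and no other step between neighbouring strains passed for any of the 10 genes. A joint limma test of any difference among the 4 strains was passed by 8 of the 10, all but elt-7 and ges-1, by 8.42% of all features and by 21.5% of those above 32. The count was 3 without the NR350 control array, 4 without the NR350 array labelled ash-2 and 5 without either N2 array. Without both NR350 arrays, an alternative chosen after seeing the data, 0 of the 10 passed it in limma, with the lowest adjusted p at 0.109.

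The second comparison set the arrays labelled ash-2 against the control arrays, to see whether the intestine genes respond to ash-2 RNAi. No member passed limma, as 0% of all features did, and the smallest adjusted p among the 10 was 0.479. The largest mean difference was that of nhx-2, with 0.15 in VP303, 0.37 in NR350, 0.37 in TU3401 and 0.27 in N2 on the log2 scale, ash-2 over control (mean 0.29 ± 0.10 SD, n = 4 strains, 1.22-fold). The exchanger gene was thus higher in 4 of 4 strains. The filament gene ifb-2 differed by -0.22 in VP303, -0.065 in NR350, -0.27 in TU3401 and -0.41 in N2 (mean -0.24 ± 0.14 SD, n = 4). It was lower in 4 of 4 strains, and its partner ifc-2 had a mean of -0.048 ± 0.088 with 2 strains on either side. The unadjusted limma p was 0.00639 for nhx-2 and 0.0449 for ifb-2, with adjusted values of 0.479 and 0.615. An unadjusted p under 0.05 was reached by these 2 of the 10 genes, by 7.99% of all features and by 14.2% of those above 32.

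The other genes differed little between the treatments. The means were 0.16 ± 0.085 for elt-2, 0.15 ± 0.097 for elt-7 and 0.15 ± 0.14 for erm-1, each positive in 4 of 4 strains. With nhx-2 and ifb-2, 5 of the 10 had 1 sign in all 4 strains, where 16.1% of all features did. Most of all features were dimmer than these 10 genes, and this share was not taken over features above 32. For eps-8 the mean of 0.21 ± 0.21 came from 0.38 in N2 and 0.39 in TU3401, beside 0.068 in VP303 and -0.011 in NR350. The means of act-5 (0.056 ± 0.12), cpr-6 (-0.047 ± 0.062) and ges-1 (-0.086 ± 0.17) were within 1 SD of 0. The 95% intervals of the 10 mean differences lay between -0.48 and 0.48. With the strains taken singly, each ratio rests on a pair of arrays and has no test, and 0 of the 10 genes reached 2-fold, or 1.5-fold, in any strain. The largest ratio was 1.33-fold, for ifb-2 in N2, lower in the array labelled ash-2. At least 2-fold differences were seen for 0.363% of all features in VP303, 0.144% in NR350, 0.137% in TU3401 and 0.353% in N2, and at least 1.5-fold ones for 1.17%, 1.08%, 1.68% and 1.49% in the same order of strains.

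**Figure D3:**
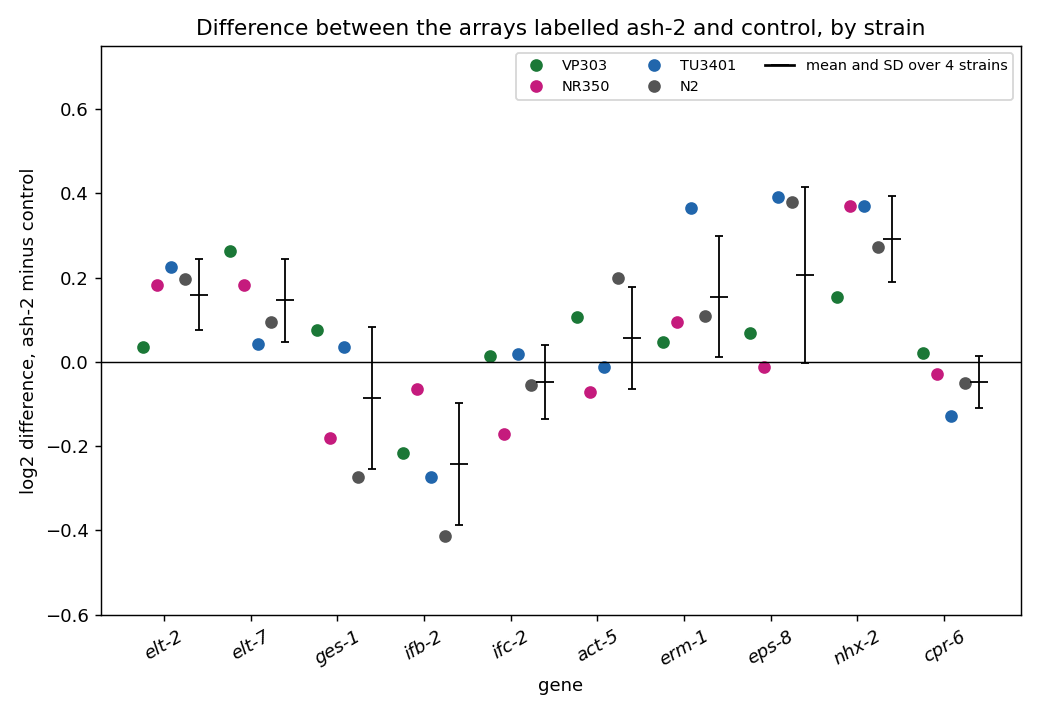
Log2 difference between the array labelled ash-2 and the control array for each gene, on the y axis, with 1 point per strain and the mean and SD over the 4 strains in black. The nhx-2 points all lie above 0 and the ifb-2 points all below it, and no point is farther from 0 than -0.41.

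Of the 4 strains, VP303 and N2 are those in which RNAi can act in the intestine, per the labels. The response of VP303 and N2 was therefore set against that of NR350 and TU3401. No member passed this test in limma either, as 0% of all features did, and 0 of the 10 had an unadjusted p under 0.05, against 5.74% of all features. The differences in response ran from -0.16 for nhx-2 to 0.19 for act-5, with a median of 0.0035. The act-5 response was 0.11 in VP303 and 0.20 in N2, beside -0.072 in NR350 and -0.011 in TU3401. The interval of its class difference, -0.13 to 0.52, was among the narrower ones, and the widest, for eps-8, ran from -0.50 to 0.57, so differences in response of that size were not resolved.

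Other intestinal genes were read from 7 lists of 60 genes, of which 58 were measured by a feature with 1 symbol. Over the 7 lists limma made 19 calls in NR350 against N2 and 18 in NR350 against TU3401, 8 in VP303 against NR350, 3 in VP303 against TU3401 and 2 in VP303 against N2. Of all features, 7.18% were called in NR350 against N2, and of those above 32, 9.20% rose and 8.79% fell. In VP303 the shares were 1.60% against TU3401 and 0.640% against N2, or 4.23% and 1.88% above 32. Of all features 4.53% were higher in NR350 than in TU3401, and 2.84% lower in VP303 than in NR350, or 11.2% and 6.56% above 32. These shares count 1 direction only, while the calls count both. The 18 calls include a fall of end-1 in NR350 (-0.48). The 8 calls include rises of end-1 (0.58) and aqp-2 (0.48) in VP303. The split over lists differed: the filament list had 6 calls in NR350 against TU3401 and 3 in NR350 against N2, and the hydrolase list had 1 and 4. The values that follow are those of NR350 against N2. Of 9 other filament and terminal web genes, 3 rose and 0 fell: the filament gene ifp-1 (0.83, SE 0.13), the filament regulator bbln-1 (0.70, SE 0.15) and the kinase gene sma-5 (0.51, SE 0.14). The list median was 0.46, and the villin gene viln-1 was lowest at -0.30, without passing. Of 10 transport genes, 4 rose: the apical peptide transporter gene pept-1 (0.90, SE 0.15), the inositol trisphosphate receptor gene itr-1 (0.66, SE 0.17), the proton exchanger gene pbo-4 (0.60, SE 0.14) and the transporter gene mrp-1 (0.45, SE 0.10). Their list median was 0.39, with pgp-3 lowest at -0.075. All of these had limma adjusted p under 0.05 over all features, of which 4.02% rose, and 9.20% of those above 32.

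Proteases and exchangers related to members of the list were measured as well. Of 12 digestive hydrolase genes, 4 rose in NR350 against N2 in limma: the cathepsin B-like cpr-8 (0.79), the acid phosphatase gene pho-1 (0.78), and the aspartyl protease genes asp-1 (0.77) and asp-3 (0.42, adjusted p = 0.0499). By the same test 4.02% of all features and 9.20% of those above 32 rose. All 12 estimates were positive, beside the fall of cpr-6. The list median was 0.36, against 0.00084 for all features and -0.080 for features above 32. Of 7 other sodium-proton exchanger genes, 4 rose, nhx-8 (0.57), nhx-5 (0.55), nhx-1 (0.45) and nhx-3 (0.34), but only 3 of the 7 had a mean intensity above 32. Among actins, act-4 rose (0.59) and act-2 did not pass (-0.31), while act-1 and act-3 lie on features with several symbols and were not tested.

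Regulators and junction genes gave few calls in NR350 against N2, where 9.20% of features above 32 rose and 8.79% fell. The counts lie near those shares and are not read as a trait of these lists. Of 9 other transcription factor genes of the intestine, zip-2 rose (0.55, SE 0.14) and end-1, the GATA factor gene that specifies the endoderm in the embryo, fell by 1.00 on the log2 scale (SE 0.12, limma adjusted p = 5.31e-04). The signal of end-1 was 23.2 and 30.3 in NR350 against 51.6 and 54.7 in N2. The list median was 0.19. Of 9 genes of apical polarity and junctions, ajm-1 rose (0.57, SE 0.15) and the median was -0.036, with hmp-1 lowest at -0.27. In VP303 against N2 the 7 lists held 2 calls in limma, nhx-8 (0.73, SE 0.13) and the protease gene cpr-4 (0.64, SE 0.12), in TU3401 against N2 they held 0, and for the ash-2 response and its class difference 0.

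Among markers of other tissues, those of body wall muscle rose most in NR350. Against N2, limma called 4.02% of all features higher and 3.16% lower, and 9.20% and 8.79% of those above 32. Single calls in the other short lists are therefore not read as a shift of a tissue. Of 8 body wall muscle genes, 7 rose against N2 in limma, with a median of 1.20, from 0.43 for pat-10, which did not pass, to 1.52 for the myosin gene unc-54. Their summed intensity was 4597 to 5061 in NR350, 2477 to 2669 in VP303, 2602 to 2798 in TU3401 and 2055 to 2727 in N2. Of 6 epidermis genes, the adult collagen gene col-19 rose (0.85) and the GATA factor gene elt-1 fell by 0.62. In VP303 against N2, col-19 rose as well (0.64). Of 10 neuron genes egl-21 rose (0.82), and of 8 germ line genes the Notch receptor gene glp-1 fell by 0.77. Of 4 pharynx genes the myosin gene myo-1 rose (0.77), while pha-4 was lowest at -0.46 without passing. The pharynx estimates split, with 2 positive and 2 negative. The medians of these lists were 0.052 for epidermis, 0.069 for neurons, 0.35 for pharynx and -0.078 for germ line. Only 4 of the 6 epidermis, 5 of the 10 neuron and 3 of the 4 pharynx genes had a mean intensity above 32. Dimmer genes have compressed differences, so medians near 0 for epidermis and neurons do not show that these tissues were unchanged. Of 5 sperm genes gsp-3 rose (0.21), and of 2 coelomocyte genes 0 passed, all 7 with mean intensities under 32. None of the markers is listed at 0, as the scale has a floor. The part of these shifts in the differences of the intestine genes was not tested.

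**Figure D4:**
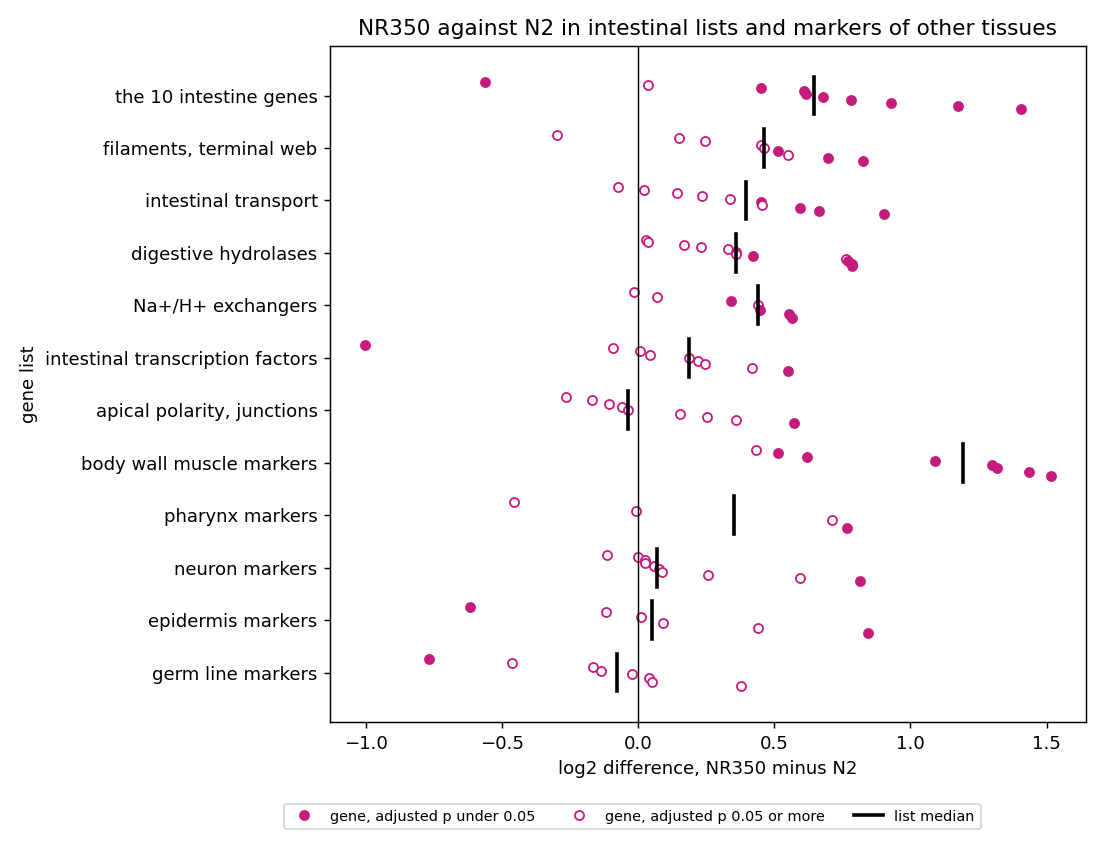
Log2 difference between NR350 and N2, on the x axis, for every measured gene of the intestinal lists and of the marker lists of other tissues, without the actin, sperm and coelomocyte lists. Points are genes, filled where the limma adjusted p is under 0.05, and black bars are list medians. The median lies at 0.65 for the 10 intestine genes, at 1.20 for body wall muscle and near 0 for polarity, neuron, epidermis and germ line genes. The neuron and epidermis lists include dim genes, whose differences are compressed.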

How the data were processed

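Expression was measured in total RNA of whole worms with 8 Affymetrix C. elegans Gene 1.0 ST arrays. The series' design text names GeneChip Command Console 2.0 and GeneSpring GX 11.0.2. RMA normalization is named per the submitters' processing notes, with its version and any offset not stated. The deposited values are linear intensities that the authors had normalized, from 18.01 to 12880.

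Intensities were put on the log2 scale as deposited, with no pseudocount and no filter. Features were named by the platform annotation where it gives 1 symbol, and locus names come from the RefSeq table of assembly WBcel235. Coordinates are left out, as the array's genome build is not stated, and no sequences were used. Fits used limma 3.58.1 in R 4.3.3 (lmFit, eBayes with a trend, two-sided), p-values adjusted by Benjamini and Hochberg across the 27792 features, and a threshold of 0.05. The additive model of strain and treatment has 3 residual degrees of freedom and the class model 2. The 95% intervals use the moderated standard errors. The strain block pairs the arrays of 1 strain; deviations from the treatment means correlated at 0.526 to 0.840 within strains, over features above 32. The fits were also run on simulated data in which features and arrays vary independently, so that run does not give error rates for these data.

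The genes and lists were chosen with earlier results of these data known. Named were all members, label checks, each list's extremes and genes that passed, and nearest patterns. Alternatives were other normalization, centring, filter, prior, threshold, floor and model terms, and leaving out arrays or strains.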

Additional observations from a re-analysis of the deposited data

How the results depend on the processing

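For the ash-2 response, 0 of the 10 genes passed in limma under every alternative run, each strain left out in turn included. The count was also 0 for its class difference and for VP303 against N2 under every alternative that kept all arrays. For VP303 against N2 it was 0 without both NR350 arrays as well. Differences of 2-fold or 1.5-fold within a strain stayed at 0. With arrays left out, the number of genes that passed ranged from 4 to 9 for NR350 against N2, 2 to 5 for VP303 against NR350, 3 to 6 for NR350 against TU3401, 0 to 0 for VP303 against TU3401 and for TU3401 against N2, and 0 to 8 for any strain difference; such fits have fewer residual degrees of freedom. At a threshold of 0.10, cpr-6 passed in TU3401 against N2 (1 gene) and elt-2 in VP303 against TU3401 (1 gene). Among features above an intensity of 32, where fewer features were tested, 2 genes passed in VP303 against TU3401. Small differences that did not pass changed sign. For TU3401 against N2, median centring gave -0.0042 for elt-7 and -0.0092 for erm-1, and quantile normalization gave 0.064 for nhx-2, causes not tested. With arrays left out, the TU3401 differences ranged from -0.020 to 0.066 for elt-2, -0.051 to 0.087 for elt-7, -0.040 to 0.21 for ges-1, -0.047 to 0.18 for ifb-2, -0.13 to 0.15 for erm-1, -0.24 to 0.0026 for eps-8 and -0.090 to 0.015 for nhx-2, and the VP303 differences from -0.029 to 0.16 for act-5 and -0.023 to 0.12 for erm-1. Dim genes, ges-1, elt-7 and nhx-2 above all, have compressed differences, and 1 array per group limits what can be resolved.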

Other observations

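Some features other than those of the 10 genes had levels that ran close to those of the 10 genes over the 8 arrays. The likeness is Pearson's r of log2 values among 8038 features with 1 symbol and a mean intensity above 32, given as a description, since the 8 arrays come from 4 strains and each r rests largely on how the strains differ. The feature most like nhx-2 was that of the apical peptide transporter gene pept-1 (r = 0.997), a member of the intestinal transport list, 1.87-fold higher in NR350 when set against N2. The features nearest to the filament genes were those of pry-1, the axin gene of Wnt signalling, for ifb-2 (r = 0.987) and of the cuticle gene rol-1 for ifc-2 (r = 0.991). The log2 level of rol-1 averaged 7.60 in NR350, 5.23 in VP303, 4.89 in TU3401 and 4.51 in N2, and in TU3401 and N2 its intensity was below the threshold of 32. For the microvillus genes they were dod-19 for act-5 (r = 0.993), apg-1, a subunit of the AP-1 adaptor, for erm-1 (r = 0.991) and C37C3.2 for eps-8 (r = 0.985). The levels of spin-1 were nearest to ges-1 (r = 0.995), those of ndrr-1 to elt-2 (r = 0.979), those of K09H9.7 to elt-7 (r = 0.963) and those of fbxb-40 to cpr-6 (r = 0.975). Against N2, dod-19 was 4.27-fold higher and fbxb-40 was at 0.341 of its level in NR350. The mean profile of the 10 genes was matched most closely by jun-1, the worm Jun gene (r = 0.988), ZK546.4 (r = 0.986) and F23B12.4 (r = 0.984). The log2 level of ZK546.4 averaged 5.58 in NR350, 5.11 in VP303, 4.81 in TU3401 and 4.71 in N2. In TU3401 and N2 this level also lay below the threshold of 32.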
